A study of Homo sapiens with 7 samples.

Results

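In small extracellular vesicles (sEVs), 6 mature miRNAs from host-gene loci were followed, the 2 arms of miR-335 (hsa-miR-335-5p and hsa-miR-335-3p), the 2 arms of miR-361 (hsa-miR-361-5p and hsa-miR-361-3p), and the 5p arms of the paralogs miR-374a and miR-374b (hsa-miR-374a-5p and hsa-miR-374b-5p). They are 6 of the 2656 mature miRNAs listed in the counts, chosen by name, because miR-335-5p, miR-361-5p and miR-374b-5p were among the miRNAs called higher after SYNCRIP silencing in these same libraries and the others are their second arms and paralog. The sEVs were collected from HepG2 cells, a human hepatocellular carcinoma line, infected with lentiviral vectors, selected with puromycin and carrying a doxycycline-inducible short hairpin RNA. In shCTR cells (3 libraries) the hairpin is a scrambled control, and in shSYNCRIP cells (4 libraries) a single hairpin targets SYNCRIP, an RNA-binding protein studied for loading miRNAs into sEVs. Both groups were grown in medium with vesicle-depleted serum and their sEVs were pelleted by ultracentrifugation. Changes in how many vesicles hold a miRNA, in its amount per vesicle and in its amount in the cells cannot be told apart in these libraries. Whether the silenced cells came from 1 clone is not given in the sources used here.

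A miRNA hairpin is cut into a 5p and a 3p arm, and usually 1 arm is kept by Argonaute while the other is degraded. The kept arm pairs with target mRNAs mainly through its seed, bases 2 to 8. Many hairpins lie in introns and are transcribed with their host gene. miR-335 is hosted by MEST, a paternally expressed imprinted gene, and is known as a suppressor of metastasis in breast cancer. miR-361 is hosted by CHM, which encodes a Rab escort protein. miR-374a and miR-374b come from FTX, a long noncoding RNA of the X-inactivation region.

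The mature sequences, from RefSeq on GRCh38.p14, are shown because the arms and paralogs are compared below, and 5 of the 6 members were matched by name (all but miR-374a-5p). Capitals mark the seed, bases 2 to 8.
miR-335-5p: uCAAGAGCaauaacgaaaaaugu
miR-335-3p: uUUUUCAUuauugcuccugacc
miR-361-5p: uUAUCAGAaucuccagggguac
miR-361-3p: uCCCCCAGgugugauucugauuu
miR-374b-5p: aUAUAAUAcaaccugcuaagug
The paralog miR-374a-5p was taken to share the seed of miR-374b-5p. Its sequence was not at hand, so it was not part of the search for shared seeds. Among the 2367 listed miRNAs matched to a RefSeq sequence, no other miRNA had one of these 5 seeds.

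The hairpins are shown to place both arms, which are in capitals here.
MIR335: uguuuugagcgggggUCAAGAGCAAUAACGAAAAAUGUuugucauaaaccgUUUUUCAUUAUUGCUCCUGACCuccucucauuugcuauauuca
MIR361: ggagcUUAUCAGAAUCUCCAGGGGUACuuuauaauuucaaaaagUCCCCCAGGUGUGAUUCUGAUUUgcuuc
MIR374B: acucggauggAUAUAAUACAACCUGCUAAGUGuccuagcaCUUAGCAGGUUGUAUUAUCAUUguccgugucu
MIR335 lies at chr7:130496111-130496204 on the plus strand, in an intron of all 13 MEST transcripts of GENCODE release 29 that span it. MIR361 lies at chrX:85903636-85903707 on the minus strand, in an intron of both CHM transcripts that span it. MIR374B lies at chrX:74218547-74218618 on the minus strand, in an intron of 7 FTX transcripts, and MIR374A at chrX:74287286-74287357, in an intron of 13. The paralogs are 68667 bases apart. All 4 hairpins lie on the strand of their host.

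The miRNA counts per library ranged from 106376 to 388226 in shCTR and from 29863 to 240984 in shSYNCRIP, and between 100 and 275 miRNAs were detected in a library. shSYNCRIP replicate 2 was the shallowest, and replicate 4 had the fewest miRNAs, with 44 of the 117 tested miRNAs at 0 counts. Of 4 hepatocyte miRNAs, miR-122-5p had 313 to 1664 counts in every library. The other 3 were uneven, miR-194-5p at 2, 701 and 363 counts in shCTR and 463, 1, 1120 and 0 in shSYNCRIP, miR-148a-3p at 265, 278 and 3 and at 200, 1, 298 and 0, and miR-192-5p at no more than 1 count in any library. Markers of erythroid cells (3 miRNAs) summed to between 9.49% and 18.7% of the counts in shCTR and between 8.54% and 12.3% in shSYNCRIP, those of leukocytes (4) to between 1.15% and 2.33% and between 0.317% and 1.59%, and those of hepatocytes (4) to between 0.523% and 1.01% and between 0.272% and 1.49%. Most of the erythroid sum was miR-486-5p, at 2644 to 34044 counts. miR-451a had 236, 1241 and 2803 counts in shCTR and 1042, 1, 6279 and 0 in shSYNCRIP. miR-144-3p had 138 counts in shSYNCRIP replicate 3 and 0 in every other library. The part of all these markers in the values below was not tested. Counts were scaled by TMM to CPM, counts relative to the scaled library size, 1 count being worth between 2.60 and 34.4 CPM. Intervals given below cover counting error only and take reads as independent. Amplified reads are not independent molecules, so the intervals may be too narrow even for that error.

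miR-361-5p was the most evenly present member. It had 251, 0 and 768 counts in shCTR replicates 1, 2 and 3, which is 2438, 0 and 1996 CPM. In shSYNCRIP replicates 1 to 4 it had 997, 115, 897 and 896 counts, which is 6044, 3955, 4341 and 8967 CPM. All 4 shSYNCRIP libraries lay above all 3 shCTR libraries, which describes values that led to its choice and is no support for a difference. The closest pair was shSYNCRIP replicate 2 (95% exact Poisson interval 3265 to 4747 CPM) and shCTR replicate 1 (2146 to 2759 CPM), and these intervals leave out the spread between cultures. Within shSYNCRIP the order ran from replicate 4 through 1 and 3 to 2, and replicates 3 and 2 did not differ beyond their counting intervals. Among the 117 miRNAs that passed the filter on low counts, 3 (2.56%) had every shSYNCRIP library above every shCTR library, and miR-361-5p was 1 of them. It was also 1 of the 2 (1.71%) that did so when scaled by library size alone, and nothing is read from either count.

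On average miR-361-5p stood at 1478 ± 1299 CPM in the shCTR libraries (SD, n = 3). The shSYNCRIP average was 5826 ± 2282 CPM (SD, n = 4), which is 3.94 times as high. The single library at 0, shCTR replicate 2, would have shown it at 20.9 CPM or more with 3 counts. Only 4 of the 117 tested miRNAs (3.42%) had this pattern of 0 counts in 1 library and at least 100 in the other 6, namely miR-361-5p, miR-150-5p, miR-15b-5p and miR-223-3p, named after their values were seen. The 0 was in shSYNCRIP replicate 4 for miR-150-5p and miR-15b-5p and in shSYNCRIP replicate 2 for miR-223-3p. Of the 117, 9 (7.69%) had 0 counts in shCTR replicate 2. The limma-voom log2 fold change of miR-361-5p was 4.30 (SE 2.21) with that library and 0.98 (SE 1.50) without it, whereas leaving out any other library kept it between 3.78 and 5.93.

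miR-374b-5p was high in some libraries of each group and nearly absent in others. It had 1, 1 and 300 counts in shCTR replicates 1 to 3, or 9.71, 6.96 and 780 CPM. It had 72, 1, 908 and 1080 counts in shSYNCRIP replicates 1 to 4, or 436, 34.4, 4394 and 10808 CPM. The groups overlapped, since shCTR replicate 3 lay above shSYNCRIP replicates 1 and 2. In shSYNCRIP replicate 4 it was the 30th most abundant of 100 miRNAs detected, and in shCTR replicate 1 it shared rank 165 of 224 with the other miRNAs at 1 count. The shCTR libraries averaged 265 ± 445 CPM (SD, n = 3). The average over shSYNCRIP was 3918 ± 4997 CPM (SD, n = 4), and in both groups the SD was above the mean.

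miR-335-5p was near the limit of detection in shCTR. It had 4, 0 and 4 counts there, or 38.9, 0 and 10.4 CPM. The shSYNCRIP libraries had 22, 111, 208 and 0 counts, or 133, 3817, 1007 and 0 CPM. Of the shSYNCRIP libraries 3 lay above every shCTR library, and replicate 4, at 0 counts (3 counts there would be 30.0 CPM), was level with shCTR replicate 2, so the groups overlapped. The highest value came from replicate 2, the shallowest library, where miR-335-5p ranked 53rd of 187 miRNAs. The shCTR libraries averaged 16.4 ± 20.1 CPM (SD, n = 3). The average over shSYNCRIP was 1239 ± 1776 CPM (SD, n = 4), and since no shCTR library held more than 4 counts, the ratio of these means is poorly fixed.

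**Figure D1:**
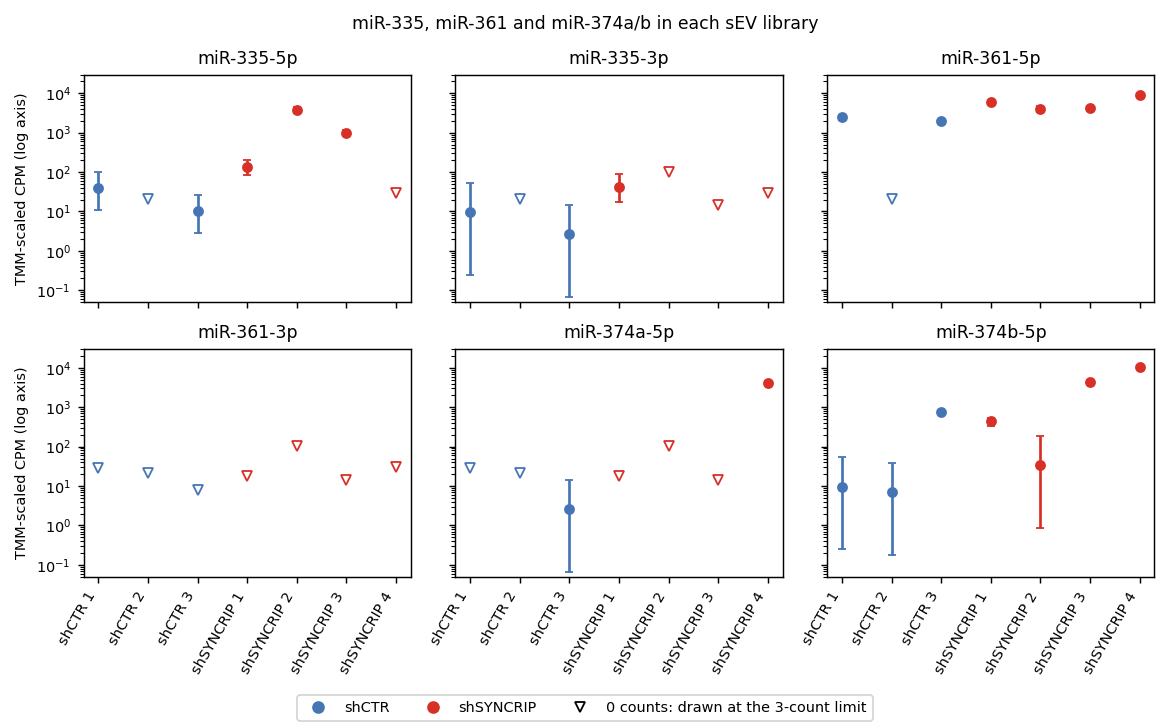
TMM-scaled CPM of each member (log axis) in the 3 shCTR (blue) and 4 shSYNCRIP (red) libraries, with 95% exact Poisson intervals as bars and libraries at 0 counts drawn as open triangles at the level of 3 counts. miR-361-5p sits between 3955 and 8967 CPM in shSYNCRIP and at most at 2438 CPM in shCTR, miR-361-3p has no filled point, and miR-374a-5p is above 100 CPM in 1 library only.

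The other 3 members did not pass the filter. miR-335-3p had 1, 0 and 1 counts in shCTR and 7, 0, 0 and 0 in shSYNCRIP. miR-374a-5p had 0, 0 and 1 counts in shCTR and 0, 0, 0 and 414 in shSYNCRIP, so that 1 library, replicate 4, held 414 of its 415 counts. miR-361-3p had 0 counts in all 7 libraries, where 3 counts would be 7.80 CPM in the deepest library and 103 CPM in the shallowest. As none of the 3 passed the filter, the groups were not compared for them.

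miR-335 and miR-361, the hairpins with both arms among the members, were represented mainly by their 5p arm. For miR-361 the 5p arm took 3924 of 3924 counts, and in shSYNCRIP replicate 1 it was at least 332-fold above the 3p arm, counting 3 reads as the limit for 0. In the other 5 libraries that held miR-361-5p the bound ran from 38.3-fold to 299-fold. Over all 7 libraries the 5p arm was higher in 6 and tied at 0 in shCTR replicate 2, with a mean difference in log2 CPM (prior count 2) of 7.17 ± 3.25 (SD, n = 7). With the 3p arm at 0 throughout, that sign is fixed wherever the 5p arm was present, so the difference is given with no test. The arms are 22 and 23 bases long.

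For miR-335 the 5p arm took 349 of 358 counts, or 97.5% (95% Clopper-Pearson interval 95.3% to 98.8%), but the split was not the same in each library. In shSYNCRIP replicate 1 it was 22 of 29 counts, or 75.9% (56.5% to 89.7%). In shSYNCRIP replicates 2 and 3 it was 111 of 111 (at least 96.7%) and 208 of 208 (at least 98.2%), whose intervals do not overlap that of replicate 1. In shCTR it was 8 of 10 counts, 80.0% (44.4% to 97.5%), too few to be compared with shSYNCRIP. Over the 7 libraries the 5p arm was higher in 5 and tied at 0 in the other 2, and the mean difference in log2 CPM was 2.55 ± 3.35 (SD, n = 7), also given with no test, since the 5p arm was picked from its values in these libraries.

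Between the paralogs, miR-374b-5p had more counts than miR-374a-5p in all 7 libraries. The mean difference, miR-374a-5p minus miR-374b-5p, was -3.45 ± 3.02 in log2 CPM (SD, n = 7), given with no test because miR-374b-5p was picked from these libraries. In 3 of the 7 libraries the order rests on 1 count against 0. Where miR-374b-5p was abundant, miR-374a-5p took 1 of 301 counts of the pair in shCTR replicate 3, 0 of 908 in shSYNCRIP replicate 3 (which allows up to 0.405%, exact interval) and 414 of 1494, or 27.7% (25.5% to 30.1%), in shSYNCRIP replicate 4. The share in the last library thus lay far outside the counting intervals of the other 2.

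**Figure D2:**
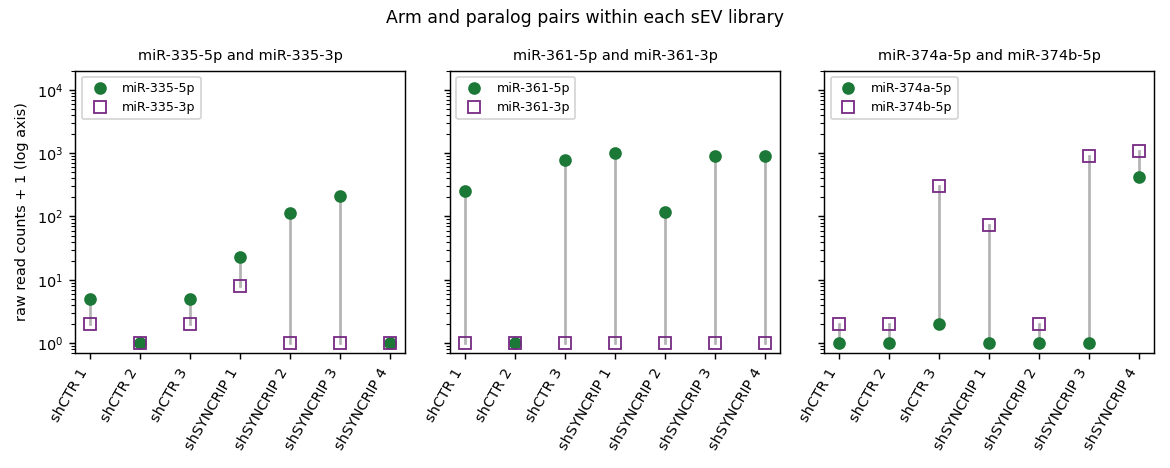
Raw read counts plus 1 (log axis) of the 2 arms of miR-335 and of miR-361 and of the paralogs miR-374a-5p and miR-374b-5p in each of 7 libraries, joined by a line within a library. The 5p arm of miR-361 stands alone in 6 libraries, miR-335-3p reaches 7 counts in shSYNCRIP replicate 1 only, and miR-374b-5p is above miR-374a-5p in all 7.

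The close relatives at the FTX locus had at most 1 count in any sEV library, apart from miR-374a-3p. These were 7 miRNAs, the 3p arms of miR-374a and miR-374b, both arms of miR-374c and miR-545, and miR-421, and 0 of the 7 passed the filter. MIR421 lies 85 bases from MIR374B, and MIR545 lies 76 bases from MIR374A, yet miR-421 had 1 count in shCTR replicate 1 and 1 in shSYNCRIP replicate 3, and both arms of miR-545 had 0 in every library. miR-374a-3p had 261 counts in shCTR replicate 3 and 0 in the other 6 libraries. The 2 arms of miR-374a thus appeared in different libraries, the 3p arm in shCTR replicate 3, where the 5p arm had 1 count, and the 5p arm in shSYNCRIP replicate 4, where the 3p arm had 0.

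miR-374c is read from the opposite strand of the same bases as MIR374B, and its 5p arm shares a run of 20 bases with miR-374b-5p (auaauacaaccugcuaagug, bases 3 to 22 of miR-374b-5p), longer than the shortest read kept (16 bases). Reads trimmed to this run fit both. miR-374c-5p had 0 counts in all 7 libraries, against 2363 for miR-374b-5p. Apart from this pair, none of the 5 members with a sequence shared a run of 16 or more bases with another of the 2367 listed miRNAs searched, which do not include miR-374a-5p.

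The question put to the libraries was which sEV miRNAs differ between shCTR and shSYNCRIP. The study's criteria were a p below 0.1 before adjustment and a fold change cutoff of 0.5, whose scale its methods do not name and which was read here as log2. By these criteria in limma-voom, 17.9% of the 117 tested miRNAs differed, 5.13% being higher in shSYNCRIP and 12.8% lower. Of the 6 members, 3 were tested and 3 met the criteria as higher. This count was fixed when the members were picked, so nothing is read from it. The values that picked them were a log2 fold change of 5.03 (SE 2.48) for miR-374b-5p, 4.30 (SE 2.21) for miR-361-5p and 4.56 (SE 2.48) for miR-335-5p, against a median of -0.07 over all 117. By unadjusted p, the last higher miRNA inside the threshold was miR-628-3p (log2 fold change 4.46) and the first outside it was miR-92a-3p (1.02). The quasi-likelihood test of edgeR gave log2 fold changes of 3.87, 1.98 and 6.21 in the same order, with 1 of the 3, miR-335-5p, among the 4.27% that were higher by the same criteria in that test. No miRNA of the 117 (0%) reached an adjusted p of 0.05 there, while 2 had an unadjusted p under 0.05. At an adjusted p under 0.05 limma-voom called 3 miRNAs and DESeq2 called 3.

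Whether the 3 tested members met the criteria depended on single libraries, and the fold change fell furthest for miR-361-5p (0.98 without shCTR replicate 2). Leaving out 1 library at a time, miR-361-5p met the criteria in 6 of 7 fits, failing without shCTR replicate 2. miR-374b-5p met them in 3 of 7, with log2 fold changes between 3.17 (without shSYNCRIP replicate 4) and 6.79 (without shCTR replicate 3). miR-335-5p met them in 1 of 7, that without shSYNCRIP replicate 4 (5.63, SE 2.16), and it no longer passed the filter without shSYNCRIP replicate 1, 2 or 3. Without shCTR replicate 1, 2 or 3 its log2 fold change was 5.10, 3.16 or 4.29. The SE in these fits was 3.26, 3.22 and 3.23, against 2.48 with all 7 libraries. Without shCTR replicate 2 none of the 3 met the criteria. Their direction was fixed by the choice of members, so its sign in these fits is no sign of stability.

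**Figure D3:**
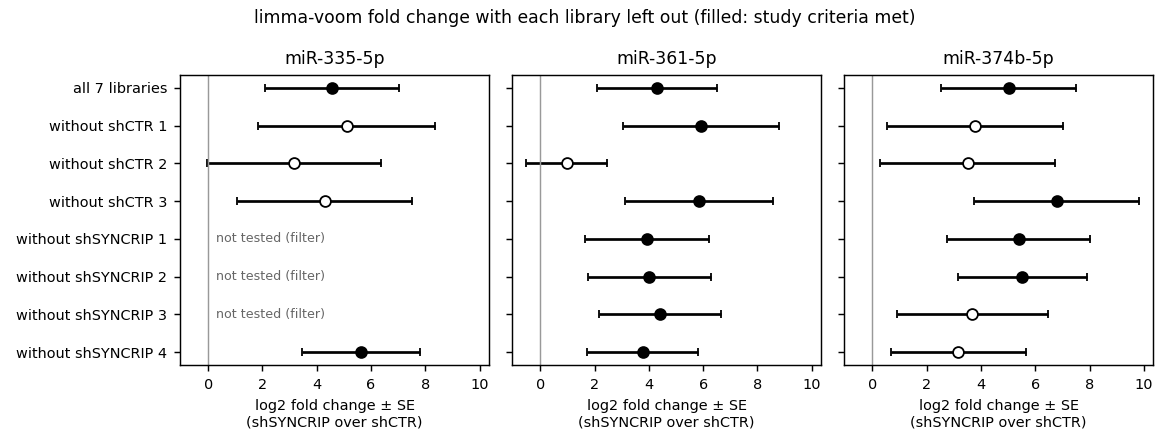
limma-voom log2 fold change, shSYNCRIP over shCTR, with standard error bars for the 3 members that were tested, from all 7 libraries and with each library left out, filled where the criteria of the study were met. miR-361-5p drops from 4.30 to 0.98 without shCTR replicate 2, and miR-335-5p is missing from 3 fits because it did not pass the filter.

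Other host-gene miRNAs were read from a list of 52 names drawn from general knowledge, with earlier results of these data known. The list is not complete and holds none of the other 3 miRNAs called higher (miR-3178, miR-18a-5p and miR-628-3p). Whether those 3 lie in host genes was not looked up. Of the 52, 29 were tested and 5 met the criteria as lower, which is 17.2%, against 12.8% over all tested miRNAs. That 0 met them as higher was fixed by the list. The 5.13% called higher over all tested miRNAs were the 3 tested members and those other 3, none of which it holds. Nothing is read from that 0. The 5 were miR-224-5p of GABRE (log2 fold change -7.32, SE 1.74), miR-106b-5p of MCM7 (-5.77, SE 1.88), miR-342-3p of EVL (-5.06, SE 2.33), miR-126-3p of EGFL7, an endothelial miRNA (-4.33, SE 2.16), and miR-6767-5p of CCNF (-1.71, SE 0.41). The median of the 29 was -0.54, against -0.07 over all 117, and 12 of the 29 lay above 0. The share called lower and this median depend on which names were listed, so neither is read as a trait of host-gene miRNAs. In the quasi-likelihood test 0 of the 5 kept the criteria, with an adjusted p of 0.983 for each.

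Other X-linked miRNAs had fold changes on both sides of 0. Of 36 X-linked miRNAs listed apart from the members, 7 were tested and 1, miR-224-5p, was lower by the criteria, which is 14.3% against 12.8% over all tested. That 0 were higher (5.13% over all tested) was fixed by the list. The X-linked members miR-361-5p and miR-374b-5p, both called higher, were left out of it, and it holds none of the others called higher. Nothing is read from that 0. The median of the 7 was 0.03, with 4 above 0 and 3 below. After miR-224-5p the largest fold changes were those of the myeloid miRNA miR-223-3p (-2.85, SE 1.85, limma-voom adjusted p = 0.633) and of miR-221-3p, which is often raised in liver cancer (1.46, SE 2.83, limma-voom adjusted p = 0.992), and neither met the criteria.

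**Figure D4:**
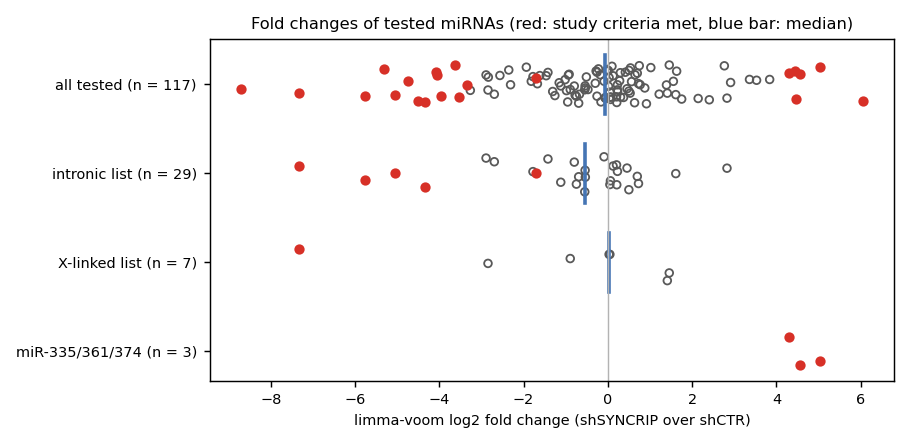
limma-voom log2 fold change, shSYNCRIP over shCTR, of all 117 tested miRNAs, the 29 of the intronic list, the 7 of the X-linked list and the 3 tested members, 1 point each with vertical jitter, red where the criteria of the study were met and a blue bar at the median of all but the members. Red points of the intronic and X-linked lists, which hold no miRNA called higher, lie below 0. Those of the members, which were picked for it, lie above 4.

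The members followed one another to different degrees across libraries. Over the 7 libraries the Pearson correlation of log2 CPM was 0.40 between miR-335-5p and miR-361-5p, -0.05 between miR-335-5p and miR-374b-5p, and 0.59 between miR-361-5p and miR-374b-5p (Spearman's rho 0.22, 0 and 0.71 in the same order). These are descriptions over points of both groups that share library depth and composition. The group difference that picked the members also enters each of them, so nothing is read from their size. Of the other 116 tested miRNAs, those most like miR-335-5p were miR-99b-5p (r = 0.95) and the muscle miRNA miR-1-3p (r = 0.93), and each had 0 or 1 counts in shSYNCRIP replicate 4, as miR-335-5p did with 0. Those most like miR-374b-5p were miR-151a-3p, in an intron of PTK2 (r = 0.88), and miR-24-3p (r = 0.79). Those most like miR-361-5p were again miR-151a-3p (r = 0.70) and let-7c-5p (r = 0.65). All of these were picked as the highest of 116 correlations over only 7 libraries, and nothing is read from their size. miR-151a-3p had 13, 4 and 2059 counts in shCTR and 725, 5, 403 and 607 in shSYNCRIP, high in the same 4 libraries as miR-374b-5p.

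The hEXO motif, described as the site bound by SYNCRIP, was searched in the 5 member sequences after their first 7 bases, on the mature strand only. It has 6 positions, the first 3 being A, G or U, then A, C or G, then A or U, then G or C. All 5 had it, miR-335-5p at bases 9 (AAUAAC) and 17 (AAAAUG), miR-335-3p at base 11 (UUGCUC), miR-361-5p at base 8 (AAUCUC), miR-361-3p at bases 8 (GGUGUG) and 14 (AUUCUG), and miR-374b-5p at base 17 (UAAGUG). The motif is common, being held by 63.6% of the 2367 listed miRNAs with a RefSeq sequence and by 61.9% of the 105 tested ones. Among those with a sequence, 5 of the 6 miRNAs higher by the criteria and 11 of the 12 lower ones held it. A match is a run of letters and not a shown site of binding.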

How the data were processed

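Small RNA libraries of HepG2 sEVs (3 shCTR, 4 shSYNCRIP biological replicates) were used. The sample titles name HepG2, while a cell line field of the labels differs from sample to sample. The authors removed adapters with FastqToolkit, filtered reads with Cutadapt and counted forward reads with MiRDeep2 against miRBase, and deposited raw counts per mature miRNA, with no normalization. Their handling of reads that fit several miRNAs is not given in the sources used here.

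Counts were scaled by TMM and compared with limma-voom (limma 3.58.1), as in the study's methods, after filterByExpr of edgeR 4.0.16 (117 of 2656 kept), which was chosen here since the study does not name its filter, with the edgeR quasi-likelihood test and DESeq2 1.42.0 beside it, in R 4.3.3. P values were adjusted by Benjamini-Hochberg over all miRNAs tested. Voom adds a small count before taking logs, so fold changes with libraries at 0 depend on it. Within-library pairs were also run through an exact sign-flip permutation test, which is not used as evidence because the members' values chose them. Of the steps used, only the limma-voom, quasi-likelihood and DESeq2 fits were tried on simulated counts. Library totals of 29863 to 388226 counts limit rare miRNAs.

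The members and lists were chosen with earlier results of these data known, and no p is given for the members' contrast. Named miRNAs were the members, their relatives, list miRNAs meeting the criteria or among the 3 largest fold changes of a list, and the 2 most correlated with each tested member. Alternatives were other size factors, filters, tests, prior counts, a replicate block and each library left out. Hosts came from GENCODE release 29 (GRCh38), whose coordinates for the 4 members' hairpins equal those of RefSeq.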

Additional observations from a re-analysis of the deposited data

Results flagged for a closer look

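Values of 8 groups of 4 shSYNCRIP libraries were searched for a library far from the others by Dixon's test at its 95% critical value, which chance passes in about 1 in 20 groups, and 2 groups passed. That rate does not apply to these 2, because in each the other 3 libraries were tied at 0 counts and any count in the fourth would have passed. For miR-374a-5p the distant library was shSYNCRIP replicate 4, with a log2 CPM of 12.02 (414 counts). The same library had 44 of the 117 tested miRNAs at 0, and the part of its composition in this value was not tested. For miR-335-3p it was shSYNCRIP replicate 1, with a log2 CPM of 5.78 (7 counts), and 7 counts correspond to 42.4 CPM, with a 95% exact Poisson interval of 17.1 to 87.4 CPM.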

How the results depend on the processing

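The 3 tested members were chosen as higher in these libraries, so their direction under the alternatives is not read. The number of them meeting the study's criteria was 3 with other size factors, 3 under a filter of 1 CPM in 3 or more libraries, 2 with no filter, 1 with the quasi-likelihood test (miR-335-5p), 2 with DESeq2 and 1 with the replicate block (miR-335-5p), and 0 to 2 with a library left out (0 without shCTR replicate 2, 1 without shCTR replicate 1 or shSYNCRIP replicate 3). With at least 10 counts in every library none of the members passed the filter. Over all tested miRNAs the number was 21, 87 with no filter, 3 with at least 10 counts in every library, 8 with the quasi-likelihood test, 11 with DESeq2 and 13 with the replicate block, and 16 to 22 with a library left out. Without a filter 65 of the 87 were higher, against 6 of 21. The cause of these changes was not tested beyond the number of miRNAs tested (406 with no filter, 36 with the strict one).

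The 5 intronic miRNAs became 14 with no filter (7 higher and 7 lower), 2 with the strict filter, 0 with the quasi-likelihood test or DESeq2 and 3 with the replicate block, and 4 to 7 with a library left out. The 1 X-linked miRNA became 5 with no filter (4 higher), 2 under a filter of 1 CPM in 3 or more libraries, 0 with the quasi-likelihood test or DESeq2, 2 with the replicate block, and 1 to 3 with a library left out, the 3 without shSYNCRIP replicate 4. The quasi-likelihood test called 0 miRNAs after adjustment with either other size factor, no filter, the block or any library left out, with a smallest adjusted p between 0.121 and 0.999 over the left-out libraries, against 3 with DESeq2. No pairing of libraries by replicate number was seen (correlation of deviations -0.06, -0.03 and 0.09 for numbers 1, 2 and 3). Unequal numbers gave -0.14 to 0.15. These values cannot show whether the cultures were handled in pairs.

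The difference between the arms of miR-361 ranged from 6.78 to 8.37 in log2 CPM with a library left out. No test of the pairs is used as evidence. An exact sign-flip test of this one, whose sign the empty 3p arm fixes, gave p = 0.0312, and 0.0625 without any library other than shCTR replicate 2. Depth limits miR-335-3p, miR-361-3p and miR-374a-5p, which were near 0 in most libraries.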

Other observations

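Summed over the 6 members, the share of a library was 0.000681% to 0.277% in shCTR and 0.728% to 2.08% in shSYNCRIP, a separation that the choice of members fixes. Of their 42 values, 19 were 0 counts, 6 were 1 to 3, 5 were 4 to 99 and 12 were 100 or more. For the 3 tested members, 11 of 21 values (52.4%) were 100 counts or more and 4 (19.0%) lay between 4 and 99, against 61.7% and 19.5% of the 819 values of all tested miRNAs.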
